A study of Mus musculus with 63 samples.

Results

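RNA that co-precipitated with the chromatin remodeller CHD2 was compared with the RNA of the starting lysate in Neuro2a, a mouse neuroblastoma cell line. Of the 63 samples of the series, 4 were chosen by their labels for this comparison: 2 CHD2 RNA immunoprecipitation (RIP) libraries and 2 input libraries, with every row of their gene tables. A pair of IgG RIP libraries from the same experiment shared the fit and served as a control for RNA carried along without the CHD2 antibody. The cells carried no edited allele and no treatment was labelled. Neuro2a cells were lysed and sonicated, CHD2 was captured with a rat monoclonal antibody on beads, and ribosomal RNA was depleted before random-primed paired-end sequencing.

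CHD2 belongs to the CHD family of ATP-dependent remodellers, which move or restructure nucleosomes and are recruited to transcribed chromatin. The lncRNA Chaserr is transcribed just upstream of Chd2, and the study asked which RNAs, Chaserr among them, associate with the protein. In RIP the level of an RNA is read against the input, so a gene that is lower has a smaller share of the precipitated RNA than of the lysate and need not be absent from it. The labels give replicate numbers but do not say whether the replicates were separate cultures, so p-values measure the spread between these libraries, which may be technical.

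The gene totals were 7621280 and 9090270 counts in CHD2 RIP and 13746546 and 16038147 in input, and 20050487 and 11285112 in IgG RIP. Levels are given as CPM, counts scaled to the library size. Log2 CPM correlated across genes at 0.960 between the CHD2 RIP libraries, 0.967 between the inputs and 0.912 between the IgG libraries. Of 20 sympathetic and neuronal markers, 17 were at 1 FPKM or more in both inputs, with Phox2a at 256 and 215 FPKM and Hand2 at 168 and 149 FPKM, both transcription factors of the sympathetic lineage. The libraries also held transcripts of cell types that the label does not name. Of 20 markers of other cell types, 16 were at 1 FPKM or more in both inputs, and Mbp, which encodes myelin basic protein, was at 349 and 227 FPKM, whereas Ptprc, the leukocyte antigen CD45, was at 0 and 0.06 FPKM. The summed FPKM of the 20 markers was 592 and 406 in input, 907 and 758 in CHD2 RIP, and 2310 and 1650 in IgG RIP. Those levels moved with the groups, and their part in the results was not tested.

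Across 14906 genes tested, 1328 were higher and 918 were lower in CHD2 RIP than in input (edgeR quasi-likelihood test, Benjamini-Hochberg adjusted p under 0.05), which is 8.91% and 6.16% of the genes. All of these called genes also showed no overlap between the CHD2 RIP and input libraries, as did 44% (higher) and 27.1% (lower) of all genes tested. The median log2 fold change over all genes was 0.32, so the values of a gene group are set beside that median. The split between higher and lower calls depended on the scaling: with median-of-ratios size factors 1102 genes were higher and 1235 lower, and the median of all genes fell to 0.19. When the IgG libraries were left out of the fit, 1939 genes were higher and 2658 lower (13.6% and 18.6% of 14276 genes), of which 1310 and 918 were among the calls of the fit with all 6 libraries. The calls depended on the number of libraries. Leaving out CHD2 RIP replicate 1, CHD2 RIP replicate 2 or input replicate 1 left 0 calls by the edgeR test, with 1275, 1267 and 1361 genes higher and 1671, 2098 and 2093 lower at an unadjusted p under 0.05, and without input replicate 2 the calls were 433 and 537. DESeq2 with all libraries called 1683 higher and 1816 lower.

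Long noncoding RNAs such as Xist and Neat1 were among the largest rises, and 48.6% of the mRNAs of SR and speckle factors, 38.3% of chromatin regulators and 21.4% of C2H2 zinc finger proteins were called higher, beside 8.91% of all genes. The mRNAs of replication-dependent histones had the lowest median of the groups examined, and mRNAs for ribosomal proteins, the CCT chaperonin, the tRNA synthetases and the actin and tubulin cytoskeleton also lay below the median of all genes. Of the 918 genes that were lower than input, 16 were also called lower than IgG, and of the 1328 that were higher, 865 were also called higher than IgG. In the direct comparison of CHD2 RIP with IgG, 11.1% of all genes were called higher and 0.376% lower.

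**Figure D1:**
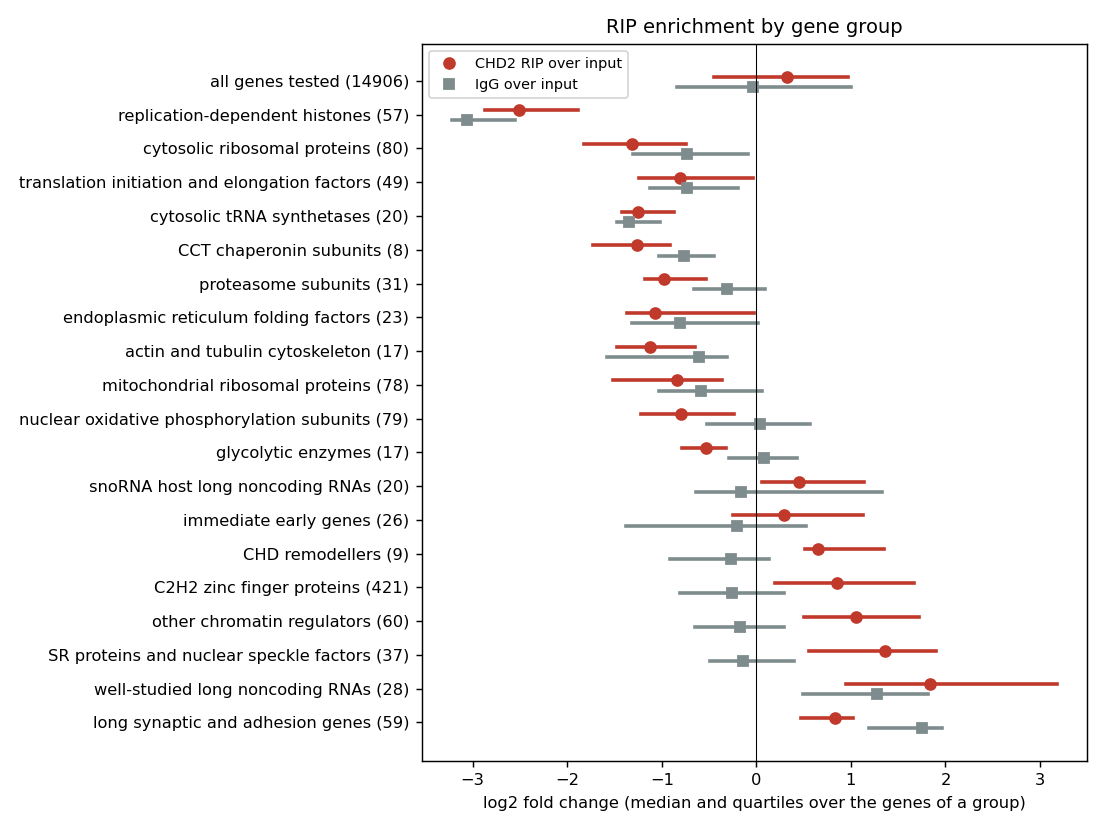
Median (symbol) and quartiles (line) of the log2 fold change over the genes of each group, for CHD2 RIP over input (circles) and IgG over input (squares), with the number of genes tested in brackets. Histone mRNAs lie at -2.51 in CHD2 RIP and -3.06 in IgG, whereas the SR and speckle group lies at 1.36 in CHD2 RIP and -0.14 in IgG.

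Rows with noncoding accessions only were shifted upwards. Of 674 such rows tested, out of 3916 in the tables, 126 were higher and 12 lower, with a median log2 fold change of 1.54 against 0.29 for 13607 rows with protein-coding accessions only, of which 1139 were higher and 874 lower. In IgG over input the medians were 0.50 and -0.05. The noncoding rows were also less abundant, with a median input level of 0.885 FPKM against 7.32 FPKM. The decile of all genes at 0.44 to 1.21 FPKM in input had a median log2 fold change of 0.83. Some noncoding rows pass a filter on low counts only through the CHD2 RIP libraries, so they were also counted among genes with at least 10 counts in each of the 4 libraries. There, 123 of 355 noncoding rows were higher and 11 lower, with a median of 1.38. Of all 12950 genes that passed this filter, 1525 were higher and 924 lower, with a median of 0.32. Of 12008 rows with protein-coding accessions only, 1332 were higher and 878 lower, with a median of 0.29.

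Of 32 well-studied lncRNAs, 28 were tested, of which 13 were higher and none was lower than input. In IgG over input 13 of the 28 were also called higher and 1 lower, and in CHD2 RIP over IgG 12 were called higher and none lower. The 28 had a median log2 fold change of 1.84, and 1.28 in IgG over input, a comparison in which 14.3% of all genes were called higher and 10.3% lower. Xist, the RNA that coats the inactive X chromosome (chrX:100655714-100678556, mm9, minus strand), was at 3397 and 3587 CPM in CHD2 RIP, 400 and 928 CPM in IgG, and 43.8 and 101 CPM in input. Both CHD2 RIP libraries lay above both IgG libraries, which in turn lay above both inputs. The log2 fold change over input was 5.59 ± 0.61 (SE, n = 2 and 2 libraries, edgeR adjusted p = 0.0054), and over IgG 2.40 (adjusted p = 0.024).

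Neat1, the scaffold of nuclear paraspeckles (chr19:5824708-5845478, mm9, minus strand), had 869 and 1096 CPM in CHD2 RIP, 38.6 and 51.1 CPM in IgG and 17.4 and 42.1 CPM in input. Its log2 fold change over input was 5.04 ± 0.51 (SE, edgeR adjusted p = 0.0046), and that over IgG was 4.45 (adjusted p = 0.0061). Here the IgG and input libraries overlapped. Malat1, the speckle-associated RNA transcribed beside it (chr19:5795690-5802671, mm9, minus strand), was chosen after its values were seen. It rose from 408 and 997 CPM in input to 12435 and 7522 CPM in CHD2 RIP, with 247 and 513 CPM in IgG, a log2 fold change of 3.83 ± 0.60 (SE, edgeR adjusted p = 0.0093). Tug1, chosen likewise, had 1122 and 1118 CPM in CHD2 RIP against 31 and 64.9 CPM in input (log2 fold change 4.54, adjusted p = 0.0056) and 32.4 and 68.1 CPM in IgG.

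Snhg14, the long host transcript of the Prader-Willi locus snoRNAs, had 100 and 62 counts in CHD2 RIP and 4 and 4 counts in input, and rose by 5.22 ± 0.79 (SE) on the log2 scale (edgeR adjusted p = 0.0087). Of the 20 snoRNA host RNAs, 4 were higher and none was lower, and the median was 0.45. Its most abundant member, Snhg12, was at 93.8 and 76.9 CPM in CHD2 RIP and at 95.4 and 61.7 CPM in input (log2 fold change 0.12, adjusted p = 0.81). Meg3, an imprinted lncRNA, counted in a joined row with 3 microRNA genes, was at 851 and 734 CPM in CHD2 RIP, 567 and 325 CPM in input and 1928 and 1308 CPM in IgG (log2 fold change over input 0.83, edgeR adjusted p = 0.16).

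Among the 12 largest rises were 9 lncRNAs, 1 transcribed pseudogene (E030024N20Rik) and 2 protein-coding genes, Onecut2 and Erv3. Onecut2, a homeobox transcription factor of neural and endocrine lineages, was at 983 and 1240 CPM in CHD2 RIP, 17.2 and 54.3 CPM in IgG and 17.6 and 48.1 CPM in input. The IgG and input values overlapped, and the rise over input was 5.08 ± 0.70 (SE, log2, edgeR adjusted p = 0.0078). Tbrg3, annotated as a lncRNA, had 145 and 131 CPM in CHD2 RIP and 0.863 and 5.07 CPM in input (log2 fold change 5.50, adjusted p = 0.010). Several of the others had few input counts. 8430431K14Rik had 1 count in each input library and 57 and 23 in CHD2 RIP. Another 8 called genes had 0 counts in both inputs and are not given a fold change here.

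Chd2 mRNA itself (chr7:80571577-80686632, mm9, minus strand) was enriched. It had 596 and 661 counts in CHD2 RIP and 277 and 437 in the larger input libraries, or 81.6 and 78.4 CPM against 21.7 and 25.8 CPM, with 18.5 and 20.9 CPM in IgG. The CHD2 RIP libraries lay above the other 4, with a log2 fold change of 1.75 ± 0.29 (SE, edgeR adjusted p = 0.010) over input and 2.02 (adjusted p = 0.0072) over IgG. When the trend of counts with transcript length was removed from each library, the log2 fold change of Chd2 was 0.94 and its adjusted p 0.061. Leaving out 1 library at a time gave an adjusted p between 0.050 (without input replicate 2, still called) and 0.13.

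Chaserr was sparsely counted in these exon-level tables and did not pass the test. It had 43 and 22 counts in CHD2 RIP, 11 and 23 in input, and 18 and 0 in IgG, which is 5.89 and 2.61 CPM, 0.863 and 1.36 CPM, and 0.862 and 0 CPM. Both CHD2 RIP values were above both input values, yet the log2 fold change of 1.92 had a standard error of 1.16 (edgeR adjusted p = 0.26), and that over IgG an adjusted p of 0.11. With only the CHD2 RIP and input libraries in the fit the value was 1.64 with an adjusted p of 0.069, the lowest of the alternatives, which reached 0.79 without CHD2 RIP replicate 1. Cnot2, a subunit of the CCR4-NOT deadenylase complex, was at 38.9 and 54.2 CPM in CHD2 RIP, 25.5 and 20.7 CPM in input and 8.71 and 19.5 CPM in IgG. It was not called over input (log2 fold change 1.01, edgeR adjusted p = 0.13) and was called over IgG (1.73, adjusted p = 0.035). The tables count spliced exons, so intronic RNA of these loci was not measured here. The study counted reads over whole gene bodies, introns included. By that measure it placed Chaserr among the RNAs most enriched over input and over IgG.

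**Figure D2:**
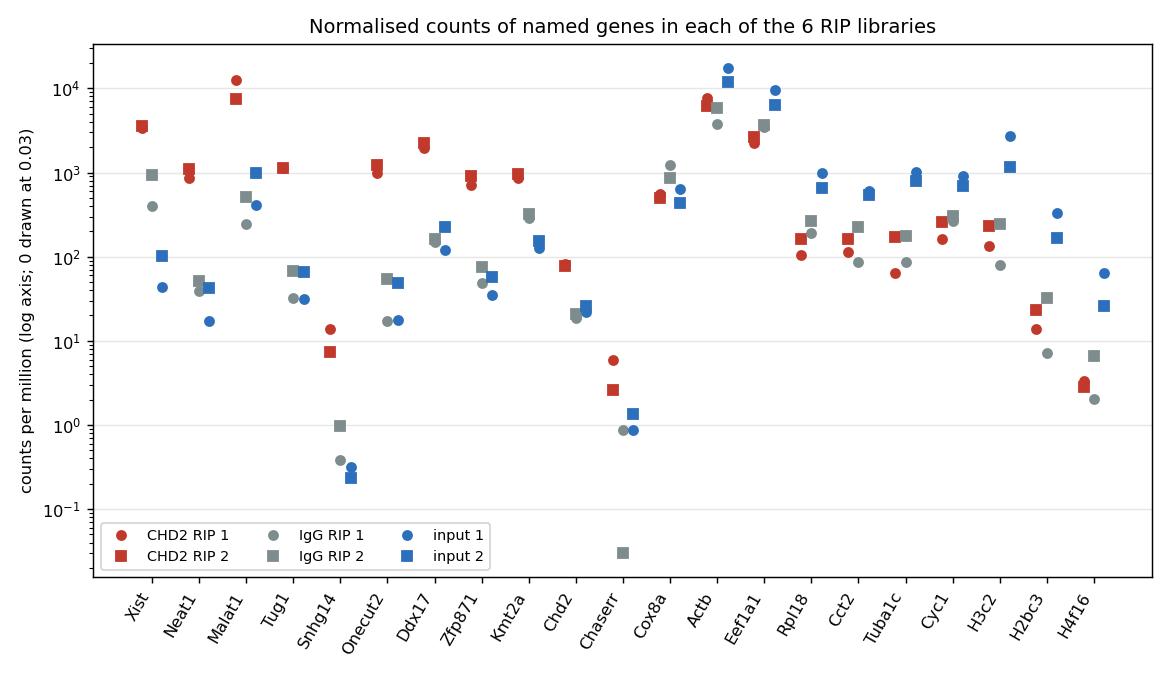
CPM (log axis) of 21 named genes in each of the 6 libraries, circles for replicate 1 and squares for replicate 2, in red for CHD2 RIP, grey for IgG RIP and blue for input. Neat1 is at 869 and 1096 CPM in CHD2 RIP against 17.4 and 42.1 CPM in input, and H3c2 at 133 and 231 CPM against 2744 and 1161 CPM.

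Many mRNAs of the splicing machinery around nuclear speckles were enriched. Of 37 SR proteins and speckle factors, 18 were higher than input and none lower, with a median of 1.36 against -0.14 in IgG over input, and 18 were called higher than IgG. Without input replicate 1 the median was 0.82, and that of all genes was 0.040. Ddx17, an RNA helicase that acts in splicing and microRNA processing, was at 1956 and 2267 CPM in CHD2 RIP, 151 and 164 CPM in IgG and 120 and 228 CPM in input. Both CHD2 RIP libraries stood above the other 4, and the rise over input was 3.60 ± 0.41 (SE, log2, edgeR adjusted p = 0.0054). Its paralogue Ddx5, the most abundant member, was at 3761 and 3280 CPM against 728 and 1073 CPM in input (log2 fold change 1.97, adjusted p = 0.013). Srsf10, which encodes an SR-type splicing regulator, rose by 2.80 on the log2 scale (adjusted p = 0.010), and Nktr, which encodes a cyclophilin with an arginine-serine-rich domain, by 2.92 (adjusted p = 0.011).

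Of 60 other chromatin regulators, 23 were higher and none lower, with a median of 1.06 against -0.18 in IgG over input. Kmt2a, a histone H3 lysine methyltransferase, was at 850 and 949 CPM in CHD2 RIP, 285 and 321 CPM in IgG and 127 and 154 CPM in input, so all 3 groups were separate. Its log2 fold change was 2.68 ± 0.32 (SE, edgeR adjusted p = 0.0058). Asxl2, a Polycomb-associated protein, rose by 2.58 (adjusted p = 0.013) and was at 27 and 56.7 CPM in IgG against 45.4 and 69.9 CPM in input. Brd2, the most abundant of the group, was at 286 and 295 CPM in CHD2 RIP and at 604 and 592 CPM in input (log2 fold change -1.04, adjusted p = 0.057). All 60 of these genes lay in the 3 longest deciles of transcript length, and with the length trend removed their median was 0.31, close to the 0.25 of all genes in that fit. Without CHD2 RIP replicate 2 it was 0.49, and without input replicate 1 it was 0.61. The median of all genes in those fits was 0 and 0.040. Among the 9 CHD remodellers only Chd2 and Chd6 were called, both higher. The median of the family was 0.65, which turned to -0.16 once the length trend was removed. Chd4, its most abundant member, was at 294 and 471 CPM in CHD2 RIP and 264 and 442 CPM in input (log2 fold change 0.12, adjusted p = 0.86).

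Of 451 C2H2 zinc finger genes, 421 were tested, with 90 higher and 3 (Zbtb7b, Zfp593 and Zfp553) lower. Their median was 0.85, compared with -0.25 in IgG over input, and 112 were called higher than IgG and none lower. Their median input level was 2.32 FPKM. The decile of all genes at 1.215 to 2.385 FPKM in input had a median of 0.71, with 13.2% called higher. With the length trend removed the C2H2 median was 0.68, beside 0.25 for all genes. Without input replicate 1 the C2H2 median was 0.45 and without CHD2 RIP replicate 2 it was 0.53. The median of all genes in those fits was 0.040 and 0. Zfp871 was at 713 and 897 CPM in CHD2 RIP, 49.2 and 76.3 CPM in IgG and 35.1 and 56.7 CPM in input (log2 fold change 4.13 ± 0.42, SE, edgeR adjusted p = 0.0046). Zbtb37 rose by 4.16 (adjusted p = 0.0093), from 1.57 and 6.13 CPM in input to 56.2 and 83.1 CPM. Zfp207, the most abundant, was at 459 and 715 CPM against 336 and 356 CPM in input (0.76, adjusted p = 0.17). Closely related zinc finger genes can share reads, so single values within the family are less certain, and the largest rise in it belonged to a joined row, Zfp967/Zfp966.

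Of 26 immediate early genes tested, 6 were higher and none lower, with a median of 0.29 that was close to that of all genes. The largest rise was that of Egr1, a zinc finger transcription factor induced by growth signals, with 1021 and 1262 CPM in CHD2 RIP, 298 and 348 CPM in IgG and 198 and 255 CPM in input (log2 fold change 2.33 ± 0.33, SE, edgeR adjusted p = 0.0080). Egr2 and Btg2 rose as well, by 1.64 and 1.84 (adjusted p = 0.029 and 0.015). Myc, the most abundant member, was at 196 and 198 CPM in CHD2 RIP and 263 and 215 CPM in input (log2 fold change -0.28, adjusted p = 0.79).

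Replication-dependent histone mRNAs were the group furthest below the input. They are made in S phase and end not in a poly(A) tail but in a short conserved stem-loop bound by SLBP. In the mm9 genome, a window from 200 bases before to 100 bases after the annotated gene end was searched on the gene's strand for inverted repeats with a stem of 6 bases and a loop of 4, and the one held by the most histone windows was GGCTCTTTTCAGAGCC. Of the windows of the 57 histone genes tested, 42.1% held it, against 1 of 14122 windows of other genes. With free bases at the variable positions (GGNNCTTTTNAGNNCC) the shares were 70.2% and 0.0142%. The stem-loops of 4 called histone genes are shown as examples, with the 16 matching bases in capitals. Each gene had the largest fall of its family with this exact match and at least 10 counts in the CHD2 RIP and input libraries.

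H3c2, chr13:23844684-23844709 (mm9, plus strand): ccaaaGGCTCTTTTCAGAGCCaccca
H2bc15, chr13:21846397-21846422 (mm9, plus strand): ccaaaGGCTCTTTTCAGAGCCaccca
H2ac11, chr13:22134347-22134372 (mm9, minus strand): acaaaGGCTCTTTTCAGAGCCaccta
H1f1, chr13:23856256-23856281 (mm9, plus strand): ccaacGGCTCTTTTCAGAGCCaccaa

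Of the 57 histone genes tested, 40 were lower in CHD2 RIP and 1 was higher. Their median log2 fold change was -2.51, and -3.06 in IgG over input, where 48 were lower. None of them was called lower than IgG and 1 was called higher. Their summed level was 3125 and 2668 CPM in CHD2 RIP, 1519 and 2681 CPM in IgG, and 22813 and 10077 CPM in input. The inputs themselves differed, replicate 1 being the higher, but both lay above all 4 precipitates. H3c2, the most abundant, was at 133 and 231 CPM in CHD2 RIP, 79.2 and 241 CPM in IgG and 2744 and 1161 CPM in input (log2 fold change -3.42 ± 0.65, SE, edgeR adjusted p = 0.015). H2bc3 fell by 3.73 on the log2 scale (adjusted p = 0.015), and H4f16 by 3.87 (adjusted p = 0.012). All 10 H3 genes were called lower, and 9 of 11 H4, 10 of 16 H2B, 9 of 15 H2A and 2 of 5 H1 genes. The exact stem-loop match did not divide the called from the uncalled genes: 16 of 24 with it were called lower, with a median of -2.48, and 24 of 33 without it, with a median of -2.54. These genes are near-identical in sequence, so reads may be divided between them.

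The histone gene that rose was H2bc21, named after its values were seen. It was at 57.0 and 38.4 CPM in CHD2 RIP, 7.66 and 5.74 CPM in IgG and 3.92 and 5.13 CPM in input (log2 fold change 3.39, edgeR adjusted p = 0.0056). Its annotated transcript, at 2667 bases, was longer than the group's median of 481 bases. Of 7 small structured RNAs 4 were tested and 1 was called. Rpph1, the RNA of RNase P, was at 53.7 and 69.3 CPM in CHD2 RIP, 460 and 138 CPM in IgG and 660 and 334 CPM in input. It fell by 3.01 ± 0.60 (SE, log2, adjusted p = 0.017) and was also called lower than IgG (-2.28, adjusted p = 0.039). Rmrp, the related RNase MRP RNA, was at 393 and 114 CPM in CHD2 RIP and 544 and 444 CPM in input (-0.96, adjusted p = 0.22). Rprl3, annotated as an RNase P RNA but outside this list, was among the largest falls (-3.38, edgeR adjusted p = 0.047). It had 14 and 6 counts in CHD2 RIP, 424 and 51 in IgG and 272 and 100 in input.

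mRNAs of the translation apparatus were depleted. Of 80 cytosolic ribosomal protein genes, 45 were lower and none higher, beside 6.16% of all genes called lower. The median log2 fold change was -1.31 in CHD2 RIP and -0.73 in IgG over input. Together they made 18331 and 19751 CPM in CHD2 RIP, 25529 and 28151 CPM in IgG and 71328 and 45570 CPM in input, with no overlap between the 3 groups. None of the 80 was called between CHD2 RIP and IgG, where only 0.376% of all genes were called lower and 11.1% higher. The median of the 80 over IgG was -0.63, against 0.017 for all genes. Rpl18, a protein of the large subunit, was at 105 and 163 CPM in CHD2 RIP, 192 and 264 CPM in IgG and 979 and 651 CPM in input. It fell by 2.60 ± 0.39 (SE, log2, edgeR adjusted p = 0.0086). Rpl41, with the highest FPKM of the group, was at 848 and 1005 CPM in CHD2 RIP and at 3095 and 1777 CPM in input (-1.39, adjusted p = 0.038). The group was not uniform. The fold change of Rps15a was 1.22 and that of Rpl21 0.36, neither of them called. Ribosomal protein genes have many processed pseudogenes, and reads may be shared with them.

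Of 49 translation initiation and elongation factors, 16 were lower and 1, Eif5a2, was higher, with a median of -0.81 and -0.73 in IgG over input. Eef1a1, which delivers aminoacyl-tRNA to the ribosome, was at 2220 and 2623 CPM in CHD2 RIP, 3512 and 3696 CPM in IgG and 9444 and 6301 CPM in input (log2 fold change -1.70 ± 0.36, SE, edgeR adjusted p = 0.021). Of 13 eIF3 subunits, 6 were lower, among them Eif3h, which fell by 2.00 (adjusted p = 0.014). The 20 cytosolic tRNA synthetases all had negative values, and 12 were called lower. Their median was -1.25 in CHD2 RIP and -1.34 in IgG over input. Kars, the lysyl-tRNA synthetase, was at 101 and 145 CPM in CHD2 RIP, 91.2 and 180 CPM in IgG and 390 and 317 CPM in input (-1.52, adjusted p = 0.037).

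The tables hold no row for mRNAs encoded in the mitochondrial genome, so the mitochondrial mRNAs here are nuclear-encoded. Of 79 subunits of oxidative phosphorylation, 27 were lower and none higher. Their median was -0.80 in CHD2 RIP and 0.04 in IgG over input. Their summed level was 7487 and 7404 CPM in CHD2 RIP, 13482 and 11308 CPM in IgG and 15691 and 11073 CPM in input, so the IgG and input libraries overlapped and the CHD2 RIP libraries lay below both. Of the 79, 2 were called lower than IgG, beside 0.376% of all genes. Their median log2 fold change over IgG was -0.75, against 0.017 for all genes. The IgG libraries also held the most RNA of the other cell types named above, and its part in these values was not tested. Calls fell in every complex: 11 of 37 subunits of complex I, 2 of 4 of complex II, 4 of 9 of complex III, 3 of 13 of complex IV and 6 of 15 of ATP synthase. Cyc1, cytochrome c1 of complex III, was at 163 and 257 CPM in CHD2 RIP, 265 and 305 CPM in IgG and 908 and 691 CPM in input. It fell by 1.93 ± 0.35 (SE, log2, edgeR adjusted p = 0.013). Cox8a, a complex IV subunit and the most abundant of the group per length, was at 549 and 504 CPM in CHD2 RIP, 640 and 431 CPM in input and 1212 and 867 CPM in IgG (-0.02, adjusted p = 0.96). Removing the length trend moved the group's median to -0.11, and that of the cytosolic ribosomal proteins to -0.58.

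Of 78 mitochondrial ribosomal proteins, 25 were lower and 3 higher, with a median of -0.84 and -0.59 in IgG over input. Mrpl54 was at 12.2 and 10.4 CPM in CHD2 RIP, 30.6 and 28.3 CPM in IgG and 54.0 and 42.7 CPM in input, and was lower than both (-2.09, edgeR adjusted p = 0.0086 over input, and -1.38, adjusted p = 0.025 over IgG). The members that rose were Mrpl44, Mrps25 and the joined row Mrps6/Slc5a3.

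Other abundant housekeeping mRNAs followed. All 8 CCT chaperonin subunits, which fold actin and tubulin, had negative values and 4 were called lower. Their median was -1.27 in CHD2 RIP and -0.77 in IgG over input. Cct2 was at 114 and 163 CPM in CHD2 RIP, 86.0 and 223 CPM in IgG and 596 and 547 CPM in input (-2.05, edgeR adjusted p = 0.024). Of 17 actin and tubulin cytoskeleton genes 8 were lower, with Tuba1c, an alpha-tubulin, falling by 2.94 (adjusted p = 0.014). Their median was -1.12 in CHD2 RIP and -0.61 in IgG over input. Actb was at 7664 and 6233 CPM against 17334 and 11999 CPM in input and missed the threshold (-1.08, adjusted p = 0.098). In IgG it was at 3737 and 5831 CPM, which was called lower than input (-1.62, edgeR adjusted p = 0.026). Of 31 proteasome subunits 9 were lower, and the median was -0.98 in CHD2 RIP and -0.31 in IgG over input. Of 23 endoplasmic reticulum folding factors 8 were lower, and the corresponding medians were -1.07 and -0.81. Only 2 of 17 glycolytic enzymes were called, both lower: Ldha (-1.98, adjusted p = 0.014) and Pgam1 (-1.27, adjusted p = 0.029). The median of the 17 was -0.54 in CHD2 RIP and 0.08 in IgG over input. The 12 largest falls also held genes of none of these groups. Crip1, a LIM domain protein, was at 7.67 and 11.3 CPM in CHD2 RIP, 13 and 29 CPM in IgG and 92.7 and 72.1 CPM in input (-3.12 ± 0.45, SE, adjusted p = 0.0082), and Gchfr, the feedback regulator of GTP cyclohydrolase, fell by 3.23 (adjusted p = 0.011).

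**Figure D3:**
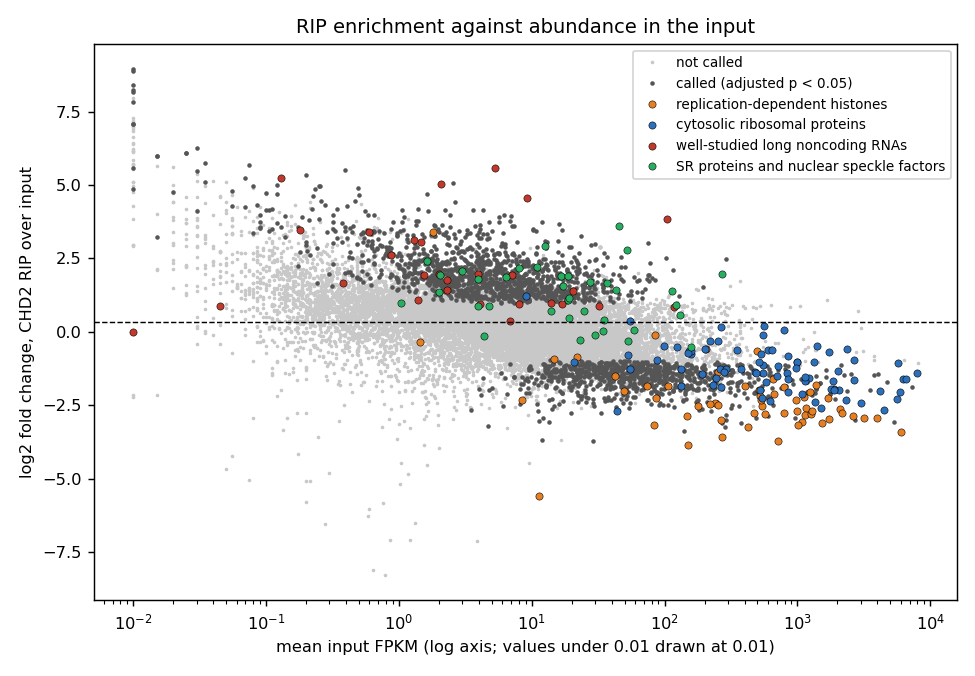
Log2 fold change of CHD2 RIP over input against mean input FPKM (log axis) for the 14906 genes tested, with called genes in dark grey and 4 groups in colour. The dashed line is the median of all genes, 0.32. Histones (orange) and ribosomal proteins (blue) lie at the right below the line, and lncRNAs (red) and SR and speckle factors (green) mostly above it.

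Enrichment declined with abundance in the input. The Spearman correlation between the log2 fold change and input FPKM was -0.50 over 14906 genes, which share their libraries and are not independent. IgG over input, which shares the inputs, gave -0.40, and CHD2 RIP over IgG gave 0.012. In the decile of genes with the lowest input level (median 0.205 FPKM) the median log2 fold change was 1.28, and in the highest decile (median 117 FPKM) it was -0.86. For IgG over input the medians of the same deciles were 1.63 and -0.74. The highest decile held 515 of the 918 genes called lower and 23 of the 1328 called higher. The input level enters both axes, so the relation was also taken across replicates: the fold change of replicate 1 against the abundance in input replicate 2 gave a Spearman correlation of -0.42, and the reverse gave -0.45. With abundance taken as the mean of all 6 libraries it was -0.31. In the 3 lowest deciles no gene was called lower, where counts are also fewest.

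Enrichment increased with transcript length. The Spearman correlation with length was 0.35 for CHD2 RIP over input and 0.095 for IgG over input, and 0.21 for CHD2 RIP over IgG. The median log2 fold change rose from -0.42 in the shortest decile (median 856 bases) to 0.91 in the longest (median 7569 bases), and in IgG over input it went from -0.07 to 0.15. The shortest decile held 293 genes called lower and 23 called higher, and the longest 6 and 388. Genomic span, taken for the 14179 genes with a GENCODE structure in mm9, gave a Spearman correlation of 0.25. The number of exons gave -0.03. Across deciles of span, the CHD2 RIP median went from 0.03 to 0.80, and the IgG median went from 0.10 through -0.23 in the fifth decile to 0.87 in the longest genes.

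Length and abundance were themselves related (Spearman correlation -0.18), so the genes were divided at the median of each, 2851 bases and 6.87 FPKM. Among genes above the median abundance, the median log2 fold change was -0.52 for short transcripts and 0.28 for long ones, with 85 and 406 called higher and 764 and 143 called lower. Among genes below it the medians were 0.54 and 0.84, with 177 and 660 called higher and 6 and 5 called lower. For IgG over input the corresponding medians were -0.44 and -0.38 above the median abundance and 0.49 and 0.50 below it, so that length separated the medians in CHD2 RIP and hardly in IgG.

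Ribosomal protein, histone and oxidative phosphorylation mRNAs were mostly short and abundant. Of the 80 ribosomal protein genes, 74 were in the most abundant decile and 66 in the shortest, of the 57 histone genes 49 and 55, and of the 79 oxidative phosphorylation genes 59 and 57. Mitochondrial ribosomal proteins were also mostly short, with 44 of 78 genes in the shortest decile and 26 in the most abundant. The median length was 1336 bases for the proteasome subunits and 1607 bases for the cytoskeleton genes. Some depleted groups lay nearer to the median of all genes, 2851 bases. Only 6 of 49 translation factors were in the shortest decile. The median length was 2711 bases for the tRNA synthetases and 2069 bases for the CCT subunits. With the length trend removed the medians of these last groups were -1.23 and -1.11, and that of the histones was -1.60. There were 451 genes in both deciles at once, with a median of -1.19 and 230 called lower. Outside the lists of histones, cytosolic and mitochondrial ribosomal proteins and oxidative phosphorylation, 273 of them remained, and their median was -1.04 with 126 called lower, compared with -1.28 for the 63 ribosomal protein genes in both deciles. For IgG over input the 273 genes had a median of -0.59.

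**Figure D4:**
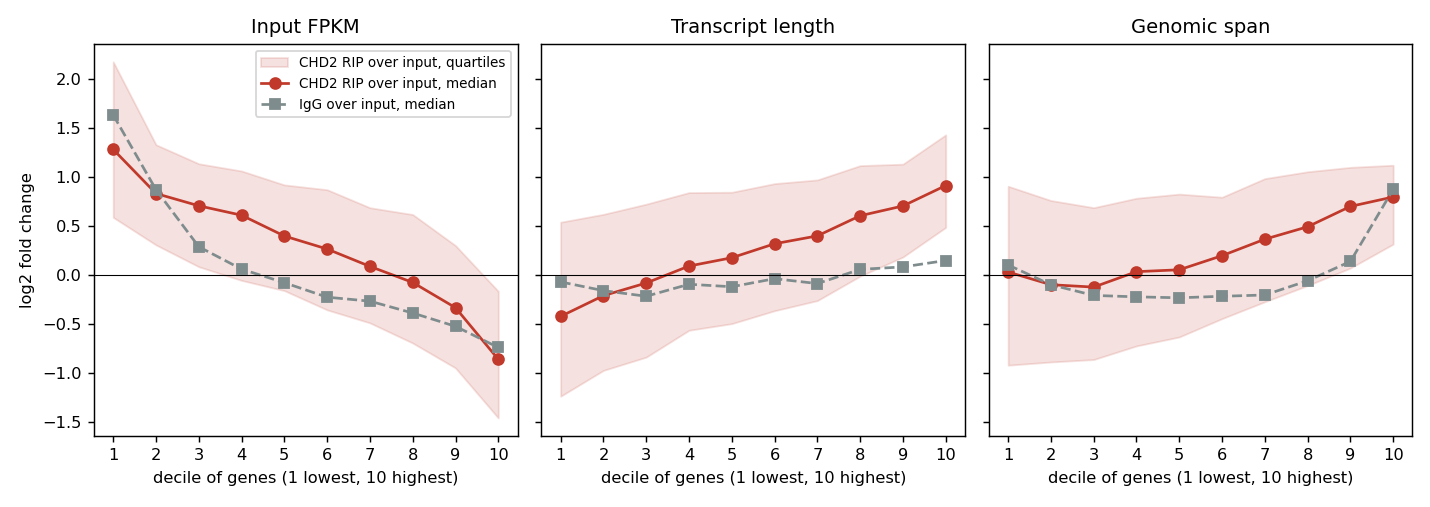
Median log2 fold change in deciles of genes ordered by input FPKM, transcript length and genomic span, for CHD2 RIP over input (red, with quartiles shaded) and IgG over input (grey). The CHD2 RIP median falls from 1.28 to -0.86 with abundance and rises from -0.42 to 0.91 with length. The IgG median falls from 1.63 to -0.74 with abundance and stays between -0.21 and 0.15 across the deciles of length.

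Long synaptic and adhesion genes were mostly not called. Of 59 tested out of 60, 2 were higher (Il1rapl1 and Auts2) and 1 lower in CHD2 RIP, with a median of 0.84, while in IgG over input the median was 1.75 and 40 were called higher. With the length trend removed the CHD2 RIP median was 0.16, and without input replicate 2 it was 0.32. The median of all genes in those fits was 0.25 and 0.064. None of the 59 was called higher in CHD2 RIP than in IgG. Auts2, a neurodevelopmental gene, was at 151 and 159 CPM in CHD2 RIP, 172 and 145 CPM in IgG and 78.6 and 61.7 CPM in input (log2 fold change over input 1.14, edgeR adjusted p = 0.034). The markers of other cell types had a median of 0.82 in CHD2 RIP and 1.86 in IgG over input over the 19 tested. None of the 19 was called in CHD2 RIP over input. Within that list the medians in CHD2 RIP were 0.83 for 4 oligodendrocyte markers, 0.91 for 3 astrocyte markers, 0.85 for 4 macrophage markers and 0.78 for 5 fibroblast markers, and -0.15 for 3 endothelial markers. Whether RNA of other cells contributes to the synaptic genes was not tested. The neuronal and sympathetic markers had a median of 0.16, with only Tubb3 called, lower (-1.17, adjusted p = 0.037).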

How the data were processed

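Total RNA from CHD2 RIP, IgG RIP and input lysates of Neuro2a cells was sequenced after depletion of ribosomal RNA. Per the labels and the study's methods, the authors made the tables used here by aligning reads with Bowtie2 and RSEM on mm9 and a RefSeq annotation edited at Chaserr. For their own RIP results they mapped reads with STAR and counted them over whole gene bodies with Homer. DESeq2 gave their tests. They deposited expected counts (estimated counts that need not be whole) and FPKM per gene, which reflect exons. Versions are not given in the sources used here. Expected counts were rounded and fitted with edgeR 4.0.16 (TMM scaling, filterByExpr, quasi-likelihood test, R 4.3.3) over the 6 libraries without covariates, with a biological coefficient of variation of 0.348. DESeq2 1.42.0 was an alternative. Genes were called at a Benjamini-Hochberg adjusted p under 0.05. CPM values use the TMM-scaled library sizes. FPKM, as deposited, set abundance, with a pseudocount of 0.1 in Pearson correlations. Of 24990 rows, 20 had no matching symbol and 374 joined several genes. Spans came from GENCODE vM1 (mm9).

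Named were Chd2, Chaserr, Cnot2, Actb, the 12 largest rises and falls among called single genes with at least 1 FPKM in the higher group, at least 1 count in each of the 4 libraries and no overlap, and of each of 25 lists up to 3 called members with the largest change plus the most abundant one. The comparison and the lists were chosen with earlier results of these data known. On simulated counts with these means, 94 of 100 genes changed by 3 on the log2 scale were called, and 24 of 100 changed by 1.5. The other alternatives were median-of-ratios factors, library totals, other filters, a fit of the 4 libraries alone, a replicate block, removal of the length trend and leaving out each library. The other samples of the series were not used. Some results are not reported here.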

Additional observations from a re-analysis of the deposited data

How the results depend on the processing

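Depth and n limit these results: there were 2 libraries a group. Leaving out 1 CHD2 RIP or input library at a time (a lone library was assumed to vary like the other groups) gave 0 to 433 genes higher and 0 to 537 lower than input, medians of -1.77 to -1.36 for cytosolic ribosomal proteins and -1.15 to -0.84 for oxidative phosphorylation subunits, a Spearman correlation with length of 0.25 to 0.36 and an abundance correlation of -0.50 to -0.41. Genes lower than input numbered 1855 without a filter on low counts, 1816 with DESeq2, 2658 with only the 4 CHD2 RIP and input libraries, 2616 with DESeq2 on those 4 (chosen after seeing the data) and 467 after removal of the length trend. The cause of these shifts was not tested. The replicate numbers could not be shown to pair the libraries, since there were only 2 pairs and the correlation of the deviations of same-numbered CHD2 RIP and input libraries was 0.159. With a replicate block 2667 genes were higher and 1534 lower. Removing the length trend moved the ribosomal protein median to -0.58, and also -0.58 with the replicate block, the oxidative phosphorylation median to -0.11 and -0.12, and the CHD remodeller median to -0.16 and -0.15. It also moved, by over 1.5 times, the medians of chromatin regulators (1.06 to 0.31), long synaptic genes (0.84 to 0.16), histones (-2.51 to -1.60), proteasome (-0.98 to -0.52), mitochondrial ribosomal proteins (-0.84 to -0.46), small structured RNAs (-1.55 to -0.61), folding factors (-1.07 to -0.67), cytoskeleton (-1.12 to -0.68), neuronal markers (0.16 to 0.03), immediate early genes (0.29 to 0.52) and snoRNA hosts (0.45 to 1.23). The median of the 4 tested rows listed as microRNA precursors, which included long transcripts, moved from 1.08 to 1.86. Leaving out 1 library took C2H2 genes from 0.85 to as low as 0.45, SR and speckle factors from 1.36 to 0.82, CHD remodellers from 0.65 to 0.29 (all without input replicate 1), markers of other cell types from 0.82 to 0.29 (without input replicate 2), snoRNA hosts to 0.085 and small structured RNAs to -2.69 (without CHD2 RIP replicate 1), and chromatin regulators to 0.49 and glycolytic enzymes from -0.54 to -0.94 (without CHD2 RIP replicate 2). By its construction, removal of the length trend took the length correlation to -0.0067, and to 0.0038 with the replicate block. The abundance correlation became -0.45 in both of these fits. The length correlation was 0.25 without a filter, 0.25 with genomic span and -0.026 with the number of exons. The abundance correlation was -0.39 without a filter, -0.52 with at least 10 counts in each library, -0.42 and -0.45 across replicates and -0.31 with abundance over all 6 libraries. Without a filter the small structured RNAs reversed from -1.55 to 0.056. Other reversals were those of the neuronal markers at -0.12 without a filter, at -0.088 with 4 libraries and between -0.35 and -0.026 without 1 library, and the immediate early genes between -0.11 and 0.19 without 1 library. The median of all genes also moved, from 0.32 to 0.051 without a filter, 0.062 with 4 libraries and between 0 and 0.064 without 1 library. Scaling by library totals kept the count of genes in each direction within 1.5 times.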

Other observations

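Of 96 transcribed pseudogenes tested, 18 were higher and 7 lower in CHD2 RIP than in input (18.8% and 7.29%, beside 8.91% and 6.16% of all genes), and their median log2 fold change was 1.00. Mir100hg, the host lncRNA of a microRNA cluster, was at 151 and 393 CPM in CHD2 RIP, 22.1 and 29.5 CPM in IgG and 9.65 and 24.5 CPM in input (log2 fold change 3.99, edgeR adjusted p = 0.0086). Mature microRNAs and snoRNAs were hardly covered by these libraries: of 993 rows listed as microRNA precursors 4 were tested, and of 100 snoRNA and scaRNA rows 1. The 4 had a median transcript length of 2081 bases, so they included long transcripts and were not all precursors.

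H3f4, a histone H3 gene outside the list, was the only other gene whose 3' window held the exact stem-loop match. It had 53 and 25 counts in CHD2 RIP, 6 and 7 in input and did not pass the test (log2 fold change 3.51, edgeR adjusted p = 0.080).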
